A study of Mus musculus with 22 samples.

Results

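The genes examined here are 31 mouse genes of the lysosome and of phagocytic digestion, chosen by name from a list and found by symbol among the 56691 genes of the files, of which 56017 could be matched to a symbol. They comprised 10 proteases, 7 glycosidases, 5 genes of lipid handling, 4 membrane proteins, 3 genes of ion transport and 2 regulators. All 31 passed the filter on low counts in every comparison, and each was followed over the 5 groups, from P7 to P14, and against each control litter of P7.

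Gene expression was measured by bulk RNA sequencing in CD11b+ cells that had been pulled from dissociated whole brains on magnetic beads, to ask how the cells respond to a two-hit model of neonatal hypoxic-ischemic encephalopathy (HIE). There were 22 libraries from 20 CF-1 wildtype mice, with 4 animals in each group, and the 2 libraries of each of 2 P14 HIE animals were summed. The groups were HIE P7, control P7, HIE P14, control P14 and hypoxia P14. In the HIE model the dam received lipopolysaccharide late in gestation and the surviving pups went through a brief progressive hypoxia on P6, whereas controls came from saline-treated dams and stayed in normoxia. The sources used here do not describe the hypoxia group, and its name is taken from the labels. The 4 HIE pups of P7 were all male, and each of the other groups held 2 males and 2 females. The P7 controls carry the labels P8, P9, P10 and P11, although the protocol and the study place them on P7. Animals share name prefixes in pairs that are taken here as litters. Each litter held animals of 1 treatment only, so litter and treatment cannot be told apart. P7 and P14 libraries were deposited as separate tables, so day and table cannot be told apart either.

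Lysosomes are acidic organelles in which proteases, glycosidases and lipases break down material that a phagocyte has engulfed. A proton pump, the V-ATPase, acidifies them, glycosylated membrane proteins line them, and transporters return the products to the cytoplasm. Microglia, the resident phagocytes of the brain, clear dying cells, synapses and debris, and in early postnatal life they do so while large numbers of developing cells die. Many lysosomal genes share a short promoter element through which the transcription factor TFEB can act on them together.

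Library totals were 70191541 to 83469037 counts on P7 and 29751486 to 46404071 on P14, and mitochondrial genes took 1.51 to 2.62% and 2.98 to 5.32% of them. The labels call the cells monocytes (CD11b+). In the HIE pups the 15 microglia markers summed to 15759 to 18179 CPM, a count scaled to the normalized library size, against 11.5 to 29.4 CPM for the 4 monocyte markers, 2280.1 to 3954 CPM for the 8 border macrophage markers and 1363 to 1822 CPM for the 8 astrocyte markers. The 6 lymphocyte markers each averaged under 1 CPM in every group. The control litter P6H63 stood apart. Its microglia markers summed to 1275 to 2013 CPM, below its astrocyte markers at 4176 to 5170.4 CPM and its 6 choroid plexus markers at 3328 to 8763 CPM. Its mean microglia marker level was 5.63 to 6.29 log2 CPM, compared with 8.79 to 8.98 in the litter P6H55, 8.92 to 9.26 in the HIE pups and 8.90 to 9.90 on P14. Between those litters astrocyte, neuron and endothelial markers ran the other way, with 6 of 8, 6 of 8 and 6 of 6 lower in P6H55 in edgeR's quasi-likelihood test. In bulk samples, fewer cells of a type and less RNA per cell cannot be told apart, and results that rest on P6H63 are therefore given with and without it.

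Together the 31 genes supplied 2.70 to 3.05% of all counts in the HIE pups, 1.92 to 2.42% in the P6H55 controls and 0.62 to 0.68% in the P6H63 controls. On P14 the shares were 1.82 to 2.15% in controls, 1.81 to 2.70% in HIE animals and 1.67 to 2.28% in hypoxia animals. The P14 groups overlapped, and all 4 HIE pups lay above the other P7 animals. The rise of the members with the microglia markers across P7 animals, and their lower place at P14 for a like marker level, are visible in the plot of both scores.

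**Figure D1:**
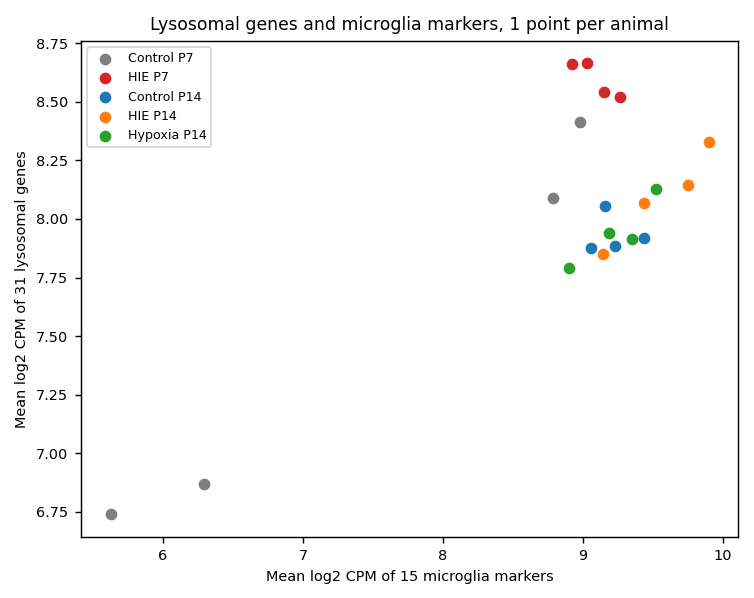
Mean log2 CPM of the 31 lysosomal genes (vertical axis) against that of 15 microglia markers (horizontal axis), with 1 point per animal, coloured by group. The 2 P6H63 controls lie at the lower left, and the P14 animals, at 7.79 to 8.33 on the vertical axis, lie below the HIE pups at 8.52 to 8.66, although their marker levels are similar or higher.

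Levels between genes were compared per kilobase of exon. In the HIE pups the highest was Ctsd, an aspartic endoprotease, at 1893 ± 162 CPM per kb (SD, n = 4). The cysteine protease gene Ctsb followed at 720.0 ± 97.6, and Psap, which encodes the precursor of the saposins that help to degrade sphingolipids, at 711 ± 32.6. The difference between Ctsb and Psap was within their spread on this scale, whereas per kilobase of the longest transcript they did not overlap, at 1093 ± 148 and 849 ± 38.9. The growth factor and lysosomal protein gene Grn reached 462 ± 19.9 CPM per kb. At the other end were the transcription factor gene Tfeb at 6.10 ± 0.415 and Atp6v0d2, which encodes a V-ATPase subunit with restricted expression, at 5.54 ± 2.22 CPM per kb. These overlapped as well, but not per longest transcript, where they were 13.2 ± 0.897 and 5.92 ± 2.37. On P14 the order of the proteases was different. Ctss, a cysteine protease that keeps its activity at neutral pH, reached 281 ± 51.1 CPM per kb in controls against 190.4 ± 40.1 for Ctsb, whereas in the HIE pups of P7 Ctss stood at 178 ± 7.87. Per longest transcript the values in P14 controls were 335 ± 60.9 and 289 ± 60.8, and on both scales the animals of the 2 genes overlapped.

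**Figure D2:**
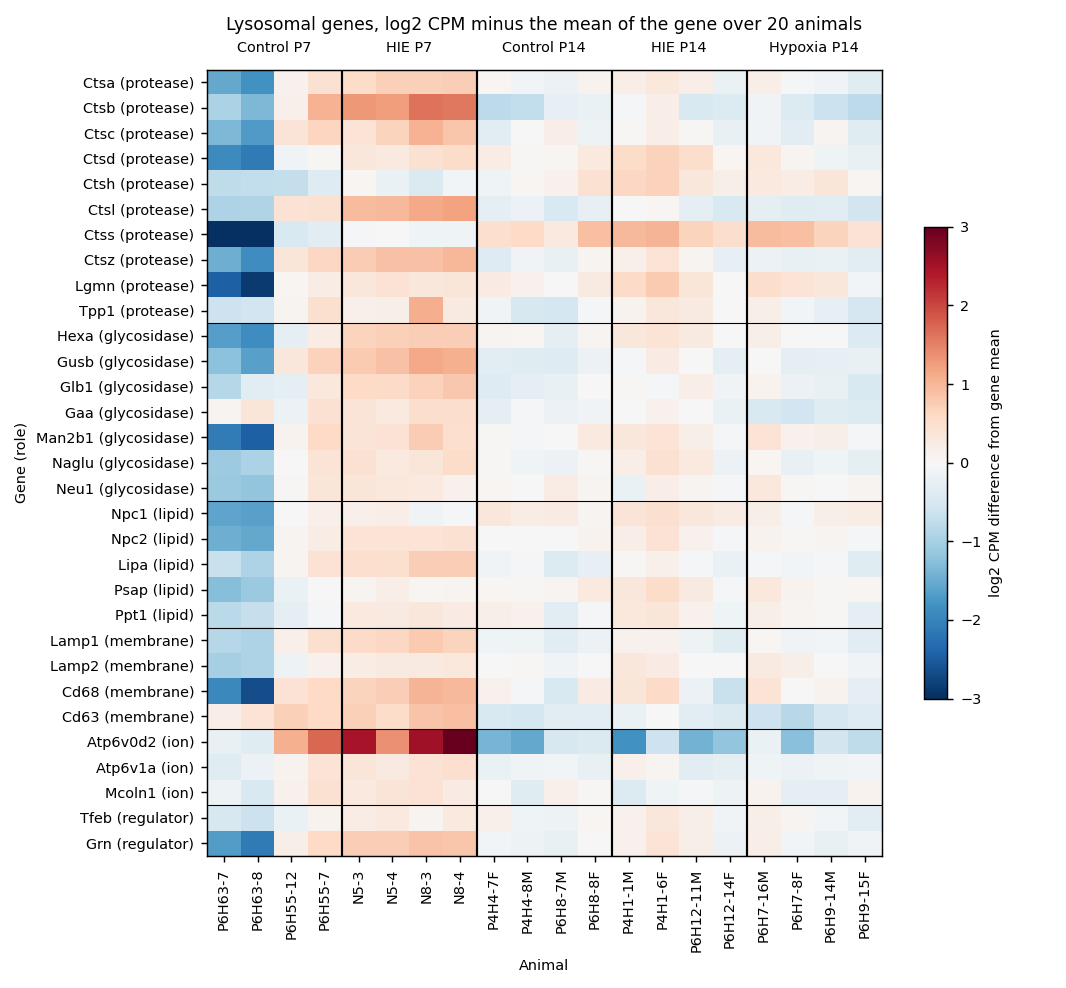
Log2 CPM of each lysosomal gene in each animal, minus the mean of that gene over all 20 animals. Rows are genes grouped by role, columns are animals grouped by treatment and day, and red is above and blue below the gene's mean. The first 2 columns, the P6H63 controls, are blue for most genes but not for Cd63 or Gaa, and the HIE pups are red for most genes other than Ctsh and Ctss.

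The first comparison asked whether HIE changed these genes 1 day after hypoxia, on P7. All 31 genes had a higher fitted level in HIE pups than in the 4 controls, with a median log2 fold change of 0.85 beside -0.08 over all 22517 genes tested. None passed an adjusted p of 0.05 in edgeR's quasi-likelihood test, in which 15 genes, or 0.0666%, passed. Of the members, 11 had an unadjusted p under 0.05, beside 27.3% of genes, and 7 passed in DESeq2, all higher, beside 4.33% of genes called higher by that tool. In 18 of the 31 every HIE pup lay above every control, beside 9.2% of all genes tested. The same held for 11 of the 15 microglia markers, which had a median log2 fold change of 1.16. Every HIE pup lay below every control for all 6 choroid plexus markers, all 6 endothelial markers and 4 of 5 mural markers, with medians of -1.54, -0.88 and -1.01. With the mean of the microglia markers as a covariate, 27 of the 31 members had a positive log2 fold change and the median was 0.21, and the part of the other cell types was not tested. With sex as a covariate 2 members had an unadjusted p under 0.05, beside 8.59% of genes, and the median was 0.71.

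Among the proteases, Ctsb measured 4944, 4823, 6295 and 6037 CPM in the HIE pups. In the controls it was 1049.6 and 789 CPM in the P6H63 pups and 4195 and 2252 CPM in the P6H55 pups. The control litters lay far apart, and the nearest control stayed below the lowest HIE pup. The log2 fold change against all controls was 1.40 ± 0.51 (SE, adjusted p = 0.154). Ctsd showed the same arrangement, with 4941, 4809.6, 5415 and 5788 CPM in HIE pups, 1041 and 904 CPM in P6H63 and 4018 and 3663 CPM in P6H55 pups. Its log2 fold change was 1.11 ± 0.51 (adjusted p = 0.198). The groups also did not overlap for Ctsa, a carboxypeptidase that protects other lysosomal enzymes, for Ctsl, Ctss and Ctsz, or for Lgmn, an asparaginyl endopeptidase that trims other proteases. They did overlap for Ctsc, which activates serine proteases, for the aminopeptidase gene Ctsh and for the tripeptidyl peptidase gene Tpp1.

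Of the 7 glycosidase genes 3 did not overlap. Hexa, the alpha subunit of beta-hexosaminidase, had 594 to 627 CPM in HIE pups and 104 to 438 CPM in controls, with a log2 fold change of 1.33 ± 0.45 (adjusted p = 0.15). Gusb and Glb1, which encode beta-glucuronidase and beta-galactosidase, were the others. Gaa, the glycogen-degrading acid alpha-glucosidase, overlapped and had the smallest log2 fold change of the 31, 0.22 ± 0.15. Man2b1, Naglu and Neu1, which remove mannose, heparan sulfate glucosamine and sialic acid residues, overlapped too.

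In the lipid group, Ppt1, a palmitoyl-protein thioesterase, had the smallest p of all members. It measured 173, 171, 177 and 168 CPM in HIE pups, 80.4 and 86.8 CPM in P6H63 and 137 and 115 CPM in P6H55 pups, and its log2 fold change was 0.71 ± 0.17 (adjusted p = 0.15). The HIE pups differed little among themselves and all lay above the controls. Npc2, which hands cholesterol to Npc1 for export, the acid lipase gene Lipa and Psap were separated in the same way, and Npc1 was not.

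Of the membrane proteins, Lamp1, an abundant glycoprotein of the lysosomal membrane, measured 1412, 1459.9, 1625 and 1502 CPM in HIE pups. It was 521 and 494 CPM in P6H63 and 1322 and 1041 CPM in P6H55 pups, with a log2 fold change of 0.82 ± 0.33 (adjusted p = 0.168). Cd68, a scavenger receptor relative widely used as a marker of phagocytes, was 346, 365, 442 and 431 CPM in HIE pups, 57.1 and 34.6 CPM in P6H63 and 333 and 296 CPM in P6H55 pups. For both genes the 4 HIE pups were highest, the P6H55 pups came close behind and the P6H63 pups were low. Lamp2 was separated too, whereas the tetraspanin gene Cd63 overlapped. None of the 3 ion transport genes, Atp6v0d2, the catalytic V-ATPase subunit gene Atp6v1a and the calcium channel gene Mcoln1, was free of overlap.

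Tfeb, the regulator of the pathway, stood at 42.1, 44.2, 37.8 and 43.5 CPM in HIE pups, 25.8 and 22.8 CPM in P6H63 and 38.4 and 31.3 CPM in P6H55 pups. One control reached the level of the HIE pups, and the log2 fold change was 0.49 ± 0.16 (adjusted p = 0.15). Grn was 1721 to 1874 CPM in HIE pups and 236 to 1573 CPM in controls. The counts of P7 depended on 1 pup. Without the P6H55 control that is labelled male, 13 members passed in edgeR, all higher. Of all genes, 24.2% passed in either direction, and 1941 of 23060 were higher.

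Set against each control litter in 1 model, the difference had a very different size. Against the P6H63 pups 30 of the 31 members were higher, all but Gaa, with a median log2 fold change of 1.67 and -0.03 over all genes. In that contrast 54.9% of 24259 genes passed, 6039 higher (24.9%) and 7283 lower, and 14 of the 15 microglia markers were higher with a median of 3.36. Ctss led, with 964, 992, 909 and 907 CPM in HIE pups and 93.1 and 65.0 CPM in P6H63, a log2 fold change of 3.59 ± 0.17 (adjusted p = 4.52e-06). Npc2 was 1.93 higher (SE 0.08, adjusted p = 4.52e-06) and Lgmn 3.03 higher (SE 0.15, adjusted p = 4.52e-06). With the mean of the microglia markers as a covariate, neither a member nor any other gene passed in this contrast in edgeR. Of the members, 8 had an unadjusted p under 0.05, beside 6.26% of genes, and their median was 1.31. That mean was 5.63 to 6.29 in the P6H63 pups, 8.79 to 8.98 in the P6H55 pups and 8.92 to 9.26 in the HIE pups. The covariate thus nearly coincides with the contrast, and this fit cannot separate marker level from litter.

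Against the P6H55 pups, whose microglia markers were closer to those of the HIE pups, 30 members had a positive log2 fold change with a median of 0.31, beside -0.03 over all genes and 0.35 over the microglia markers. The choroid plexus markers had a median of -1.10. None passed in edgeR, where 20 of 24259 genes, 0.0824%, did, while 17 members had an unadjusted p under 0.05, beside 15.9% of genes. DESeq2 called 8 members higher, beside 1.94% of genes. No member beyond the 18 above had every HIE pup above both P6H55 pups, which held for 13.3% of all genes. Ctsl came closest to a call, with 696, 702, 787 and 829 CPM against 491 and 487 CPM and a log2 fold change of 0.61 ± 0.09 (adjusted p = 0.0946). For Npc1, the single member with a negative sign, it was -0.05 ± 0.10. Without the male P6H55 pup, 8 members passed, beside 6.72% of genes, and the litter was then represented by 1 animal. Without the female P6H55 pup none passed, 24 had a positive log2 fold change, the median was 0.18 and 4 had an unadjusted p under 0.05, beside 5.82% of genes.

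The litters themselves, a contrast added after the data had been seen, differed more than HIE pups and P6H55 controls did. Of the 31 members 29 were higher in P6H55 than in P6H63, and the median log2 fold change was 1.39. Of all 24259 genes, 5575 were called higher and 47.1% in either direction. The exceptions were Gaa at -0.02 ± 0.19 and Ctsh at 0.23 ± 0.15. Both litters carry the control label. The range of the members' changes by litter is drawn in the plot of HIE pups against each litter.

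**Figure D3:**
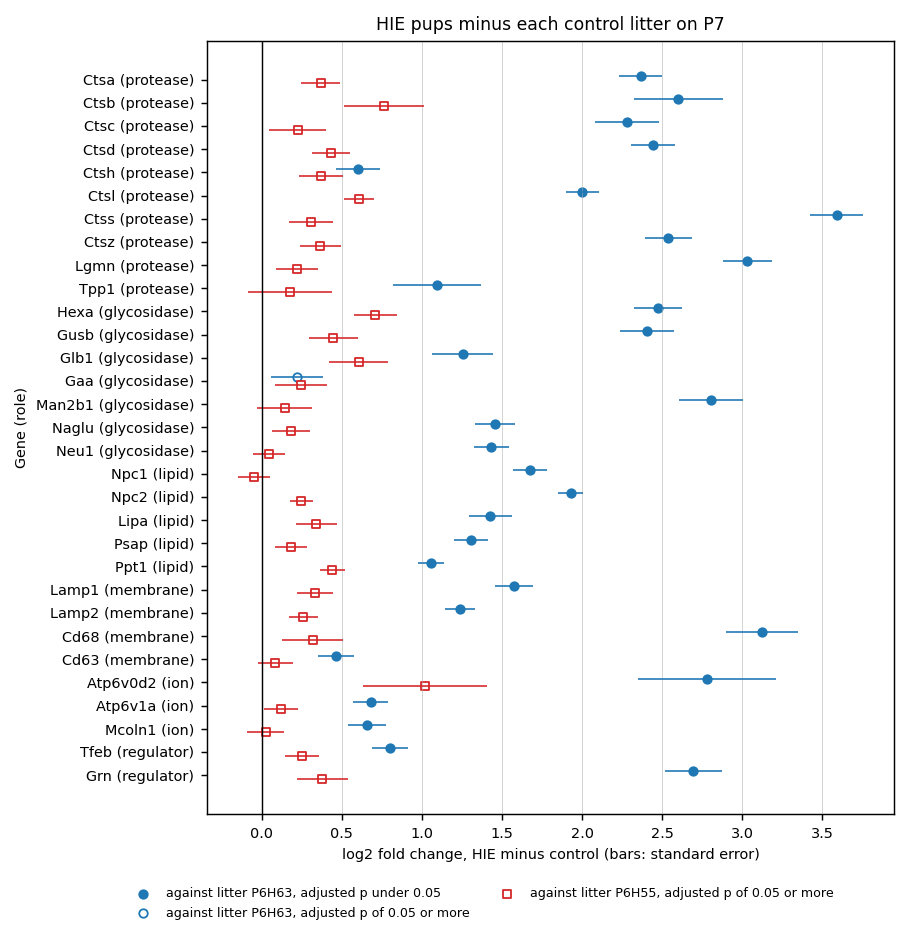
Log2 fold change with its standard error for each lysosomal gene, HIE pups minus the P6H63 controls (circles) and minus the P6H55 controls (squares), from 1 edgeR model of 8 pups. Filled symbols passed an adjusted p of 0.05. The circles spread from 0.22 to 3.59, and the squares stay between -0.05 and 1.02.

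On P14 no member passed in any of the 3 comparisons in edgeR or in DESeq2, and 2, 1 and 5 members had an unadjusted p under 0.05 for HIE against control, hypoxia against control and HIE against hypoxia, beside 9.87, 9.53 and 4.52% of genes. Between HIE and control animals 28 members had a positive log2 fold change, with a median of 0.14 and 0.01 over all 20935 genes tested, of which 1, or 0.00478%, passed. Leaving out 1 animal at a time gave medians from 0.09, without the HIE animal P4H1-6F, to 0.24, without the HIE animal P6H12-14F. Ctsb measured 1927, 2305, 1519.8 and 1475 CPM in HIE animals and 1219, 1752, 1173 and 1700.2 CPM in controls, a log2 fold change of 0.28 ± 0.19 (adjusted p = 0.706). Ctsd was 5764, 6331, 4096 and 5675 CPM in HIE animals and 4039, 4857, 4591 and 4068 CPM in controls (0.29 ± 0.16 on the log2 scale). For both proteases the groups overlapped.

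Lamp1 was 1028, 1039, 728 and 842 CPM in HIE animals and 857, 839, 868 and 747 CPM in controls, and its log2 fold change was 0.11 ± 0.13. Cd68 was 282, 327, 139 and 196 CPM in HIE animals and 215, 261, 239 and 161 CPM in controls, so that the lowest and the highest values of both groups belonged to HIE animals. Tfeb was 39.0, 45.6, 33.2 and 40.2 CPM in HIE animals and 32.7, 37.4, 39.9 and 32.5 CPM in controls. The smallest p of a higher member was that of Tpp1, with 232 to 291 against 160.2 to 227 CPM and a log2 fold change of 0.43 ± 0.13 (adjusted p = 0.306). It was the only member whose groups did not overlap, beside 2.82% of all genes. On the lower side it was Mcoln1, at -0.17 ± 0.12.

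The P14 animals came from the name series P4H and P6H. Within P4H, 29 members were higher in the 2 HIE animals than in the 2 controls, with a median difference of 0.32 log2 CPM, and the microglia markers differed by 0.50. Within P6H, 15 were higher, the median difference was -0.00 and the markers differed by 0.19. No test was made within a series.

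Between hypoxia animals and controls the members had a median log2 fold change of -0.01, beside -0.01 over all genes, and 13 of the 31 were positive. In that comparison 0.00955% of 20953 genes passed. Ctsb was 1876, 1285, 1176 and 1520.1 CPM, Ctsd 4901, 3577, 3392 and 4133 CPM and Cd68 290.0, 235, 179.8 and 219.6 CPM in the hypoxia animals, all within or overlapping the control range. Lamp1 and Tfeb, at 978, 885, 751 and 876 CPM and 40.8, 33.6, 28.5 and 38.0 CPM, overlapped the controls as well. Gaa had the smallest p, with 95.8, 102, 99.5 and 89.2 CPM in hypoxia animals and 127, 122, 109.7 and 116 CPM in controls, and every hypoxia animal lay lower. How many of all genes separated these groups was not counted. The log2 fold change of Gaa was -0.32 ± 0.08 (adjusted p = 0.462), and on the positive side Gusb had the smallest p, at 0.09 ± 0.08.

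HIE animals measured against hypoxia animals gave 28 positive log2 fold changes with a median of 0.16, which was 0.09 without P4H1-6F and 0.24 without P6H12-14F, and 0.00955% of 20951 genes passed. Gaa had the smallest p here too, at 0.41 ± 0.09, with an adjusted p of 0.999. Atp6v0d2 had the smallest p on the negative side, at -0.58 ± 0.33. HIE and hypoxia animals were each set against the same controls above, so these comparisons are not independent.

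The next question was how the genes changed from P7 to P14. In HIE animals 12 of the 31 members passed, 1 higher and 11 lower, when all 20 animals were fitted together. The HIE pups were 4 males and the P14 HIE animals 2 males and 2 females. No fit over days held sex as a covariate, so the part of sex was not tested. The median log2 fold change of the members was -0.47, beside 0.04 over 24504 genes, of which 35.7% passed, 18.7% higher and 17.0% lower. Microglia markers had a median of 0.45, with 2 of 15 higher and none lower, so their sign was opposite. The 8 border macrophage markers had a median of -0.50, near that of the members, with 2 lower and none higher, and in 4 of them every P14 animal lay below every pup. All 5 oligodendrocyte markers rose, with a median of 3.07. Their part in the members' change was not tested. In 17 members every P14 HIE animal lay below every HIE pup, beside 22.5% of all genes, and in 3 members, Ctsh, Ctss and Npc1, every P14 animal lay above, beside 19.8%.

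The fitted changes were largest for Atp6v0d2, whose product replaces a more common V-ATPase subunit in some macrophages and osteoclasts. It measured 15.3, 7.15, 16.1 and 21.8 CPM in HIE pups and 0.753, 1.76, 1.18 and 0.994 CPM in P14 HIE animals, a log2 fold change of -3.68 ± 0.49 (adjusted p = 1.46e-05). The pups differed widely among themselves, but every pup exceeded every P14 animal. Cd63, a tetraspanin of late endosomes and exosomes, had the smallest p. It fell from 178, 159, 197 and 205 CPM to 95.1, 107, 80.9 and 87.8 CPM, by a log2 fold change of -0.99 ± 0.13 (adjusted p = 1.07e-05). Among the proteases Ctsl fell from 696, 702, 787 and 829 to 360.3, 376, 262 and 295 CPM (-1.22 ± 0.25, adjusted p = 0.00112).

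Ctsb fell as well, from 5525 ± 749 CPM to 1807 ± 389.6 CPM (SD, n = 4 each), with a log2 fold change of -1.61 ± 0.38 (adjusted p = 0.00269). Ctsd did not pass. Its means were 5238 ± 449 and 5466 ± 959 CPM, a log2 fold change of 0.06 ± 0.36 (adjusted p = 0.915). Ctsh rose, from 141, 118, 99.9 and 128 to 209, 219, 155 and 172 CPM, by 0.63 ± 0.14 (adjusted p = 0.00222).

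The other members that fell were the glycosidase genes Gusb (-0.98 ± 0.34), Glb1 (-0.64 ± 0.18) and Gaa (-0.47 ± 0.12), Lipa (-0.64 ± 0.21), Lamp1 (-0.72 ± 0.24), Atp6v1a (-0.48 ± 0.14) and Mcoln1 (-0.53 ± 0.16). By role, 2 proteases of 10, 3 glycosidases of 7, 1 lipid gene of 5, 2 membrane proteins of 4 and all 3 ion transport genes fell, and neither regulator passed. Cd68 had 396 ± 47.3 CPM on P7 and 236 ± 84.8 CPM on P14 (-0.75 ± 0.49, adjusted p = 0.25), and Tfeb had 41.9 ± 2.85 and 39.5 ± 5.06 CPM (-0.08 ± 0.15). The spread in that fit includes the 2 unlike control litters. With the 2 HIE groups fitted alone, an alternative added after the data had been seen, 20 members passed, 3 higher and 17 lower, beside 46.0% of 22577 genes.

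In controls the same contrast called 8 members, 5 higher and 3 lower, beside 48.1% of 24504 genes, 22.0% higher and 26.0% lower. The median was 0.22, against -0.04 over all genes. Ctsh rose most clearly, from 80.2 and 81.9 CPM in P6H63 and 103 and 83.3 CPM in P6H55 to 141, 187, 125 and 148 CPM on P14, with a log2 fold change of 0.78 ± 0.14 (adjusted p = 3.06e-04). Ctss rose by 1.84 ± 0.54 (adjusted p = 0.0092) and Psap by 0.66 ± 0.23 (adjusted p = 0.0243). Npc1 (0.75 ± 0.29) and Ppt1 (0.43 ± 0.16) were the other 2 that rose.

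Cd63 fell from 125 and 145 CPM in P6H63 and 166 and 178 CPM in P6H55 to 75.1, 87.6, 78.9 and 86.7 CPM on P14 (-0.90 ± 0.13, adjusted p = 2.55e-05). Atp6v0d2 fell from 2.31 and 2.12 CPM and 9.05 and 5.72 CPM to 0.918, 2.02, 1.01 and 1.95 CPM (-1.70 ± 0.46, adjusted p = 0.00559), and Gaa fell by 0.36 ± 0.12 (adjusted p = 0.0188). In the P6H63 pups Atp6v0d2 was near the P14 levels, and it no longer passed when they were the sole P7 controls. The direction of the group as a whole turned with the litter. With the P6H55 pups alone as P7 controls, 13 members passed, 2 higher and 11 lower, with a median of -0.32, beside 35.5% of genes. With the P6H63 pups alone, 26 passed, 24 higher and 2 lower, with a median of 0.97, beside 59.4%. With the mean of the microglia markers as a covariate the direction also turned, with 2 higher, 16 lower and a median of -0.39, beside 36.7%.

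**Figure D4:**
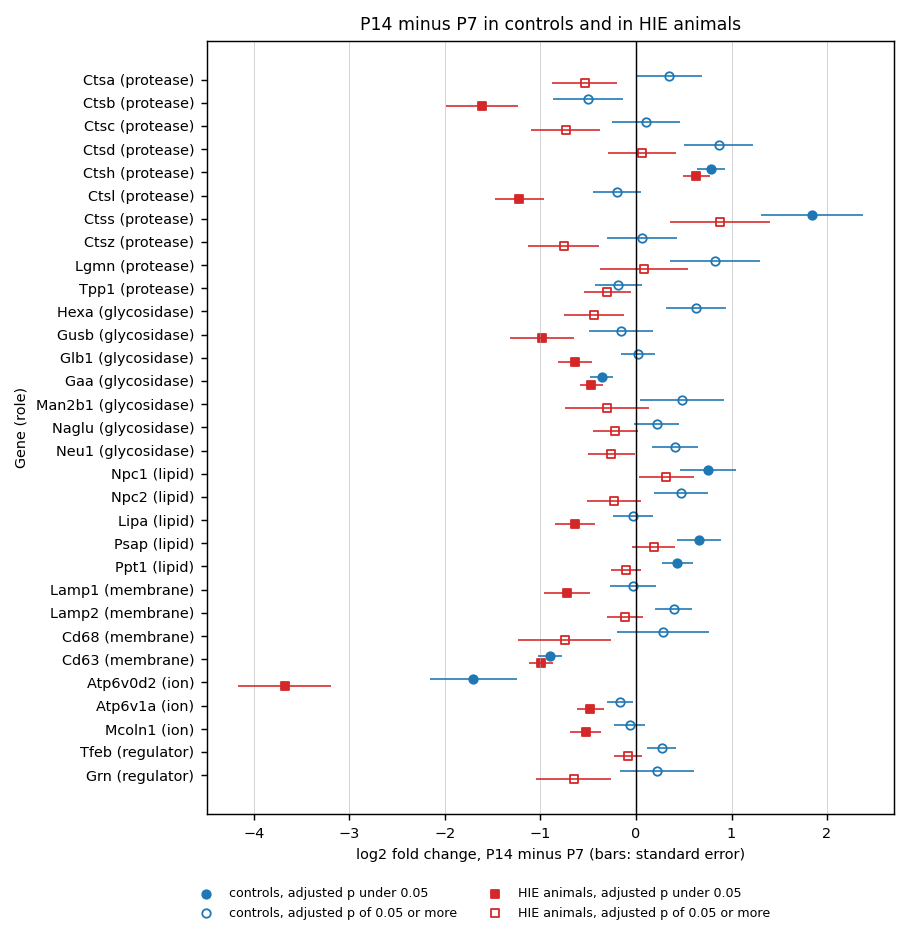
Log2 fold change from P7 to P14 with its standard error for each lysosomal gene in controls (circles) and HIE animals (squares), from 1 edgeR model of 20 animals. Filled symbols passed an adjusted p of 0.05. Cd63, Gaa and Ctsh are among the genes with nearly the same change in both, and for every gene the square lies to the left of the circle.

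The difference between these changes, tested as an interaction of day and treatment, had a negative sign for all 31 members, with a median of -0.69, beside 0.04 over all genes. No member and no other gene passed (0.0% of 24504), while 6 members and 3531 genes (14.4%) had an unadjusted p under 0.05, and DESeq2 called 700 genes but no member. Atp6v0d2 had the smallest p, with a difference of -1.97 ± 0.64 (adjusted p = 0.154). With P6H63 as the sole P7 controls 27 members passed, beside 30.2% of genes, and with P6H55 none did and the median was -0.16. Without the male P6H55 pup 9 passed, beside 6.99%. With the microglia markers as a covariate none passed, 3 were positive and the median was -0.25.

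Comparisons of genes within 1 animal do not need a control litter, but day and table cannot be told apart in them either. The ratios below were chosen after the values had been seen and are given without a test. How many other pairs of genes separate the days was not counted. The ratio of Ctsb to Ctsd CPM was 0.873 to 1.01 in P6H63 pups, 0.615 to 1.04 in P6H55 pups and 1.00 to 1.16 in HIE pups. On P14 it was 0.255 to 0.418 in controls, 0.26 to 0.371 in HIE animals and 0.347 to 0.383 in hypoxia animals. All 8 pups of P7 thus lay above all 12 animals of P14. These pups include those of P6H63 with their low microglia markers, and the part of other cell types in the ratio was not tested.

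The ratio of Ctss to Ctsb moved the other way, from 0.0823 to 0.321 over the P7 pups to 0.711 to 1.22 over the P14 animals. Ctss over Ctsl, another pair of cysteine proteases, went from 0.339 to 1.60 to 4.65 to 6.65. In contrast, Lgmn over Ctsd overlapped between days, with 0.314 to 0.606 on P7 and 0.471 to 0.731 on P14. In CPM alone, Ctss was the only member for which every P14 animal lay above every P7 pup, beside 7.97% of all genes, and Cd63 the only one for which every P14 animal lay below, beside 9.6%.

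**Figure D5:**
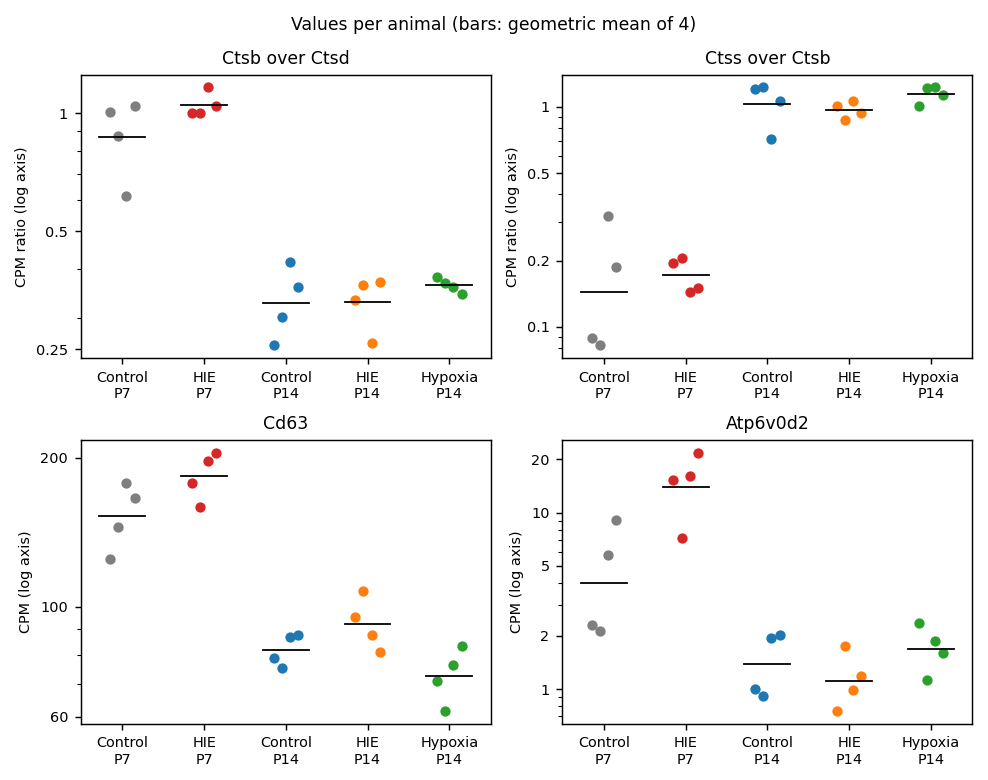
Ratio of Ctsb to Ctsd CPM, ratio of Ctss to Ctsb CPM, and CPM of Cd63 and Atp6v0d2, each on a log axis, with 1 point per animal and a bar at the geometric mean of the 4 animals of a group. The P7 and P14 animals do not overlap in the first 3 panels, and in the fourth the 2 lowest P7 controls, at 2.31 and 2.12 CPM, reach the P14 values.

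Other genes of the pathway were counted from lists that, like the members, were chosen with earlier results of these data known. None passed in edgeR on P7 against all controls, where 48 of 145 had an unadjusted p under 0.05 beside 27.3% of all genes, or in the 3 comparisons of P14, where 11, 8 and 3 of 143 did for HIE against control, hypoxia against control and HIE against hypoxia, beside 9.87, 9.53 and 4.52%. Against P6H63 alone 112 of the 145 were higher and 17 lower, beside 24.9% of all genes higher and 7283 of 24259 lower. Against P6H55 alone 0 passed and 40 had an unadjusted p under 0.05, beside 15.9%. The counts over time below stand beside 18.7% of all genes higher and 17.0% lower in HIE animals. From P7 to P14 in HIE animals, 8 of 30 further hydrolases fell and 1 rose, with a median log2 fold change of -0.28. The smallest p values were those of Galc, which degrades galactosylceramide (-0.93 ± 0.13, adjusted p = 3.37e-05), and of the acid phosphatase gene Acp5 (-1.91 ± 0.28, adjusted p = 4.66e-05). Ctso rose (0.40 ± 0.11). Of 18 further membrane genes 6 fell, with a median of -0.40. They included Gpnmb, a transmembrane glycoprotein of phagocytes, which went from 244 ± 109 to 31.9 ± 11.3 CPM (-2.93 ± 0.46, adjusted p = 8.23e-05), and the small GTPase gene Rab7 (-0.89 ± 0.14).

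Of the 16 V-ATPase genes 4 fell, with a median of -0.18, among them Atp6v0c (-1.16 ± 0.20) and Atp6v0d1 (-0.70 ± 0.19). Atp6v0d1 encodes the common form of the subunit that Atp6v0d2 replaces, and it had 124 ± 5.91 CPM on P7 and 76.1 ± 11.7 CPM on P14. The ratio of Atp6v0d2 to Atp6v0d1 was 0.0598 to 0.168 in HIE pups and 0.00886 to 0.0202 in P14 HIE animals. It was 0.0282 to 0.0320 in P6H63 pups and 0.0340 to 0.0778 in P6H55 pups. On P14 it was 0.0124 to 0.0296 in controls and 0.0154 to 0.0304 in hypoxia animals, so the days overlapped over all animals. Among the cystatins, inhibitors of cysteine proteases, the secreted Cst3 rose from 2679 ± 248 to 6459 ± 1443 CPM (1.27 ± 0.34, adjusted p = 0.00701), and the cytosolic Cstb fell from 34.8 ± 3.76 to 14.0 ± 1.17 CPM (-1.32 ± 0.17, adjusted p = 9.14e-06).

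In the mannose 6-phosphate sorting list 3 of 9 fell, led by the adaptor genes Gga1 (-1.12 ± 0.12) and Gga2 (-0.85 ± 0.17). Of 18 genes around TFEB and mTOR 5 fell, led by Rraga (-0.91 ± 0.12) and Mitf (-0.84 ± 0.20), and of 21 autophagy genes 3 fell, a share below the 17.0% of all genes, led by Ulk1 (-0.69 ± 0.11) and Gabarap (-0.80 ± 0.15). The 29 phagocytic receptor and engulfment genes included 2 higher and 4 lower, both shares below those of all genes (18.7% and 17.0%), with a median of -0.07. Itgav (0.41 ± 0.13) and Tyro3 (0.78 ± 0.28) rose, while the smallest p values on the lower side were those of Scarb1 (-0.60 ± 0.14) and Gas6 (-0.88 ± 0.23).

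In controls over the same days, where 22.0% of all genes rose and 26.0% fell, 5 of 30 further hydrolases rose and 7 fell, 3 of 18 membrane genes rose and 3 fell, 2 of 16 V-ATPase genes rose and 2 fell, and Cst3 was the sole cystatin called (2.32 ± 0.35). Of the sorting genes 1 rose and 3 fell, of the genes around TFEB and mTOR 3 rose and 3 fell, of the autophagy genes 3 rose and 4 fell, and of the phagocytic receptors 7 rose and 4 fell. Galc (-0.84 ± 0.13), Gga1 (-0.77 ± 0.12) and Rraga (-0.89 ± 0.12) fell in controls too. These contrasts include the unlike control litters.

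Promoters were searched because 11 of the 31 members fell from P7 to P14 in HIE animals, beside 17.0% of all genes. The motif was CACGTG, with its 8-letter form TCACGTGA, which contains it. Both read the same on either strand. In a window from 250 bases before to 50 bases after the start of each gene's canonical transcript in GRCm39, CACGTG was found in 8 of the 31 members (25.8%) and in 9.18% of the 16286 protein-coding genes tested. The 8-letter form was found in 2 members (6.45%), Ctsb and Mcoln1, and in 1.4% of those genes. Of 64 other hydrolases, membrane genes and V-ATPase genes, 14 (21.9%) held CACGTG and 8 (12.5%) the 8-letter form. The sites of 6 members are shown, those of Ctsb and Mcoln1 for the longer form and the others because their changes between days are described above. The motif is in capitals and each stretch reads in the direction of transcription.
Ctsb, chr14:63359879-63359908, plus strand: gcggtcaagcaTCACGTGAcgaatcagccc
Mcoln1, chr8:3550462-3550491, plus strand: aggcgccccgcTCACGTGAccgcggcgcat
Ctsd, chr7:141941792-141941821, minus strand: tcttccttccccCACGTGacctgtatccag
Lamp1, chr8:13209088-13209117, plus strand: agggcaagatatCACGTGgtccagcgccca
Gaa, chr11:119158637-119158666, plus strand: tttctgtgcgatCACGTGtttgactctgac
Glb1, chr9:114230086-114230115, plus strand: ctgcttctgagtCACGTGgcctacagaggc

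The sites of Ctsb and Mcoln1 lie in the first exon, beginning 14 and 22 bases into the transcript, counted from 1 at its first base. Those of Ctsd, Lamp1, Gaa and Glb1 begin 34, 21, 64 and 46 bases before it. Lamp1 held 4 copies of CACGTG and Mcoln1 held 2, while Naglu and Atp6v1a held 1 each. That of Atp6v1a began 249 bases before the start, at the edge of the window. Of the 8 members with the motif, 6 fell between P7 and P14 in HIE animals, beside 17.0% of all genes tested. They were Ctsb, Glb1, Gaa, Lamp1, Atp6v1a and Mcoln1, and the median log2 fold change of the 8 was -0.50. In controls Gaa alone of them was called lower, beside 26.0% of all genes. That contrast depends on the control litter. With P6H55 alone as P7 controls 11 of the 31 members were lower, beside 4652 of 24274 genes. With P6H63 alone 2 were lower, beside 7431 of 24613. No member passed in the interaction of day and treatment with all controls. The share that fell among other genes with the motif was not counted. Of the 23 members without the motif, 5 fell and 1 rose in HIE animals, with a median of -0.31. Ctsd and Naglu held the motif and did not pass, at 0.06 ± 0.36 and -0.22 ± 0.24. These counts are a description, and a match of letters does not show that a factor binds.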

How the data were processed

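Expected counts per gene, which the authors estimated with RSEM after mapping with Sentieon's version of STAR to GRCm39 and deposited without scaling, were rounded and summed per animal. The strand setting is not given in the sources used here, and the kit was stranded. Symbols, exon lengths and positions came from GENCODE vM39. Groups followed the labels. The members and lists were chosen with earlier results of these data known. All genes passing the filter on low counts were fitted with edgeR 4.0.16 (quasi-likelihood test, two-sided, TMM, filterByExpr), with Benjamini-Hochberg adjustment over all genes tested and a threshold of 0.05. DESeq2 1.42.0 was an alternative. P7 contrasts by litter used 8 pups in 3 groups, day contrasts 20 animals in 5 groups, and the others 2 groups. CPM used TMM factors over all animals, and log2 CPM a prior count of 2. The fits were tested on simulated data. Named are, for each comparison, up to 3 called members a direction, taken by adjusted p-value, or without a call 1 member a direction by p, and for other lists up to 2 called genes a direction. Ctsb, Ctsd, Cd68, Lamp1 and Tfeb are always given. Labels do not say whether libraries of a group come from separate litters beyond their names. By the names, the 4 animals of each group came in pairs from the same litter, and lipopolysaccharide was given to the dam. The fits treat littermates as independent. The p-values therefore measure the spread between these animals, not between litters, and can be too small for an effect of treatment or litter.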

Additional observations from a re-analysis of the deposited data

Results flagged for a closer look

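Within groups of 4 animals, 155 pairs of a lysosomal gene and a group were searched for 1 animal far from the other 3, by Dixon's test at its 95% critical value. Chance alone flags about 1 in 20 groups, and 6 of the 155 were found. On P7 these were the control pup P6H55-7 for Ctsh, at 6.69 log2 CPM, and the HIE pup N8-3 for Tpp1, at 8.95 log2 CPM, both the highest of their group. Among P14 controls the lowest was P6H8-7M for Hexa, at 8.28 log2 CPM, and the highest was P6H8-8F for Npc2 and Psap, at 8.61 and 11.34 log2 CPM. In the hypoxia group it was P6H9-15F for Lipa, at 6.61 log2 CPM, the lowest. The P7 effect of HIE depended on the control litter, and the test of that difference is the contrast of the litters P6H55 and P6H63 themselves. It called 29 of the 31 members in edgeR, beside 47.1% of all genes.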

How the results depend on the processing

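The counts of called members were recomputed under each alternative. On P7, DESeq2 called 7 members against all controls and 8 against P6H55, beside 4.33 and 1.94% of genes called higher. Testing every gene without a filter gave 2 against P6H55, beside 66 of 36183 genes. With the mean of the microglia markers as covariate, 0 were called against P6H63 and 0 between the litters. The covariate also turned the sign of Mcoln1 (-0.79) and Tfeb (-0.23) against P6H63 and of both between the litters (-0.72 and -0.41), with no call. In both contrasts the covariate nearly coincides with the litters. Neither the lost calls nor the turned signs can therefore separate marker level from litter. From P7 to P14 it gave 18 members in controls, 2 higher and 16 lower where 5 higher and 3 lower were called without it, and 25 in HIE animals, 2 higher and 23 lower. Of all genes, 36.7% passed in controls and 46.4% in HIE animals with that covariate. Controls of P7 from P6H55 alone gave 13 in controls and 22 in HIE animals, and those from P6H63 alone 26, 22 and, for the interaction, 27. With P6H55 alone, 35.5% of all genes passed in controls and 10982 of 24274 in HIE animals. With P6H63 alone it was 59.4% in controls, 10941 of 24613 in HIE animals and 30.2% for the interaction. The 2 control groups fitted alone gave 3, beside 7363 of 22320 genes, and the 2 HIE groups alone 20, beside 46.0%. Leaving out 1 animal at a time gave 0 to 13 members on P7, 29 to 30 against P6H63, 0 to 8 against P6H55, 25 to 28 between the litters, 4 to 16 in controls over time, 8 to 12 in HIE animals over time and 0 to 9 for the interaction. The highest value came without the control pup P6H55-7 for P7, P6H55, the controls over time and the interaction, and the controls over time also fell to 4 without P6H63-8. The cause was not tested. Without P6H55-7, 24.2% of all genes passed on P7, 12753 of 24219 in controls over time and 6.99% for the interaction. Without P6H63-8, 9760 of 24025 passed in controls over time. Leaving out 1 HIE pup gave 12201 to 12725 genes against P6H63. Leaving out 1 HIE animal gave 6962 to 8569 genes in HIE animals over time. No P14 comparison gained a call under any alternative run. Of the called genes over time, Cd63, Ctsh, Ctsl, Ctsb and Atp6v0d2 passed in HIE animals, and Cd63 and Ctsh in controls, under every alternative run. None of the alternatives over time held sex as a covariate.

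Without TMM the median of all genes moved to -0.39 against P6H63 and -0.30 between the litters, and those of the members to 1.31 and 1.09. For the P14 comparisons of HIE animals the covariate moved the member medians to -0.01. The covariate is a plain mean of 15 markers that did not all move alike. Between HIE and hypoxia animals their log2 fold changes had a median of 0.10 and ran from -0.11 to 3.34. Single markers with large changes thus weigh on the covariate, and their part was not tested. No paired analysis was possible because the labels give no replicate numbers and no litter holds animals of 2 treatments. Among P14 animals the name series as a term in the model called 0 members. Of the 31 genes, Ctsd, Ctsl and Glb1 share exon bases with another gene on the same strand and Cd63 has a pseudogene, so their counts depend on how RSEM divided reads. Many members share exon bases with a gene on the opposite strand. Among them were Lamp1 (2564 bases with Grtp1), Grn (1273 with Fam171a2), Ctsa (1252 with Pltp) and Ctsb (1184 with Fdft1). As the strand setting is not given, their counts could depend on this too.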
